A study of Mus musculus with 2 samples.

Results

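Osteopontin, the secreted protein encoded by Spp1, and the genes of the receptors that bind it were followed across the cells of 2 mouse pancreatic tumors. The set held 8 of the 32285 genes in the count tables: the ligand Spp1, the hyaluronan receptor Cd44, and the integrin subunits Itgav (αv), Itgb1 (β1), Itgb3 (β3), Itgb5 (β5), Itga4 (α4) and Itga9 (α9). They were chosen by symbol, each matched 1 row, and their unique molecular identifiers (UMIs, each standing for 1 captured RNA molecule) were summed by cell class and library.

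Both tumors grew as allografts in the mouse pancreas from KPC cells, which are a mouse line of pancreatic cancer. The cells of 1 group (KPC-shV) had a control hairpin, and in the other group (KPC-shZEB1) the hairpin targeted Zeb1, which encodes a transcription factor that represses epithelial genes. Both groups received the same kind of cell in the same organ, and the study's text states that the mice whose tumors were sequenced were treated with gemcitabine, which the labels do not mention. One tumor per group was dissociated and sequenced with the 10x Chromium 3′ v3.1 chemistry, so mouse, tumor, dissociation and hairpin cannot be told apart, no test between the groups was possible, and every interval below covers counting error at 95% only. The study used these data to look for ligand and receptor pairs between tumor cells and neutrophils, and followed Spp1 and Cd44 among them. The study's methods give its mice as 4 to 6 weeks old and name several strains without saying which these 2 were, and the KPC line is a single cell line.

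Osteopontin is an acidic phosphoprotein of bone matrix, body fluids and tumors, made by bone cells, epithelia, activated macrophages and many carcinomas. Its RGD motif is read by αvβ1, αvβ3 and αvβ5 integrins. Cleavage by thrombin or matrix metalloproteinases lays open the neighboring stretch that α4β1 and α9β1 integrins bind, and CD44 is a further receptor. In pancreatic cancer, osteopontin is known as a product of carcinoma cells and of tumor macrophages. Integrins work only as an α and a β chain together, so a cell needs RNA of both subunits of a pair.

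The coding stretch around the integrin motif is shown because the receptors in the set are defined by what they bind there. It lies in the gene of Spp1 (ENSMUSG00000029304) at chr5:104439451-104439519 of GRCm38, on the plus strand, in exon 7 of the 8 exons of GENCODE transcript Spp1-202. The capitals mark the 9 bases that encode the RGD motif (chr5:104439481-104439489), and the codons that follow them encode the α4 and α9 binding stretch with its thrombin site.
Spp1 integrin-binding stretch: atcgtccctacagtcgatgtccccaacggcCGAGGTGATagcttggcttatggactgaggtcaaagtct
The receptor genes lie on other chromosomes of the same build. Cd44 is at chr2:102811141-102901665, Itgav at chr2:83724397-83806916, Itga4 at chr2:79255426-79333123, Itgb1 at chr8:128685654-128733200, Itga9 at chr9:118606690-118901003, Itgb3 at chr11:104608000-104670476 and Itgb5 at chr16:33829665-33949338.

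After filters, 11398 and 12104 cells were left (KPC-shV, then KPC-shZEB1), with medians of 3720 and 4252 UMIs per cell. The 9 classes were named from fixed markers, and each held at least 5 of its markers in at least 20% of its cells in both libraries. They are called tumor-like, granulocyte-like and so on, since the names were rebuilt here. The library labelled KPC-shV held 1489 tumor-like, 6864 granulocyte-like and 1623 monocyte-macrophage-like cells, and the library labelled KPC-shZEB1 held 1423, 4326 and 2524. Zeb1 RNA was not lower in tumor-like cells where its hairpin was labelled: it was at 167 and 189 CPM (UMIs of a gene per 1e+06 UMIs of the class), a ratio of KPC-shZEB1 over KPC-shV of 1.13 (1.09 to 1.17). Gm10125, on the opposite strand, overlaps Zeb1 and had 1024 UMIs in all. So differences are given between the libraries as labelled, and none is tied to less Zeb1. Of all barcodes, 46 occurred in both libraries.

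Spp1 RNA was highest in the tumor-like class as clustered here. Tumor-like cells held 9611 and 6539 CPM of Spp1 (KPC-shV first, as in every pair of values here). That was far above fibroblast-like cells at 2201 and 2037 CPM and monocyte-macrophage-like cells at 1612 and 1273 CPM. Granulocyte-like cells followed at 951 and 828 CPM. In all remaining classes the level lay between 473 and 886 CPM. Among these, B-like, NK-like and dendritic-like cells followed each other with overlapping counting intervals in the library labelled KPC-shV. In the other library, B-like, NK-like, T-like, endothelial-like and dendritic-like cells did so. T cells differed by sub-type: CD8 T-like cells held 933 and 547 CPM, a ratio of 0.586 (0.537 to 0.641), past 1.5-fold. Their sub-cluster led by Gm156 and Atp2b2, 39 and 133 cells, held 1354 and 641 CPM. The other CD8 T-like sub-clusters held 660 and 468 CPM, and 553 and 524 CPM. CD4 T-like cells held 596 and 515 CPM, and regulatory T-like cells 575 and 515 CPM. The part of free RNA in these values was not tested.

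**Figure D1:**
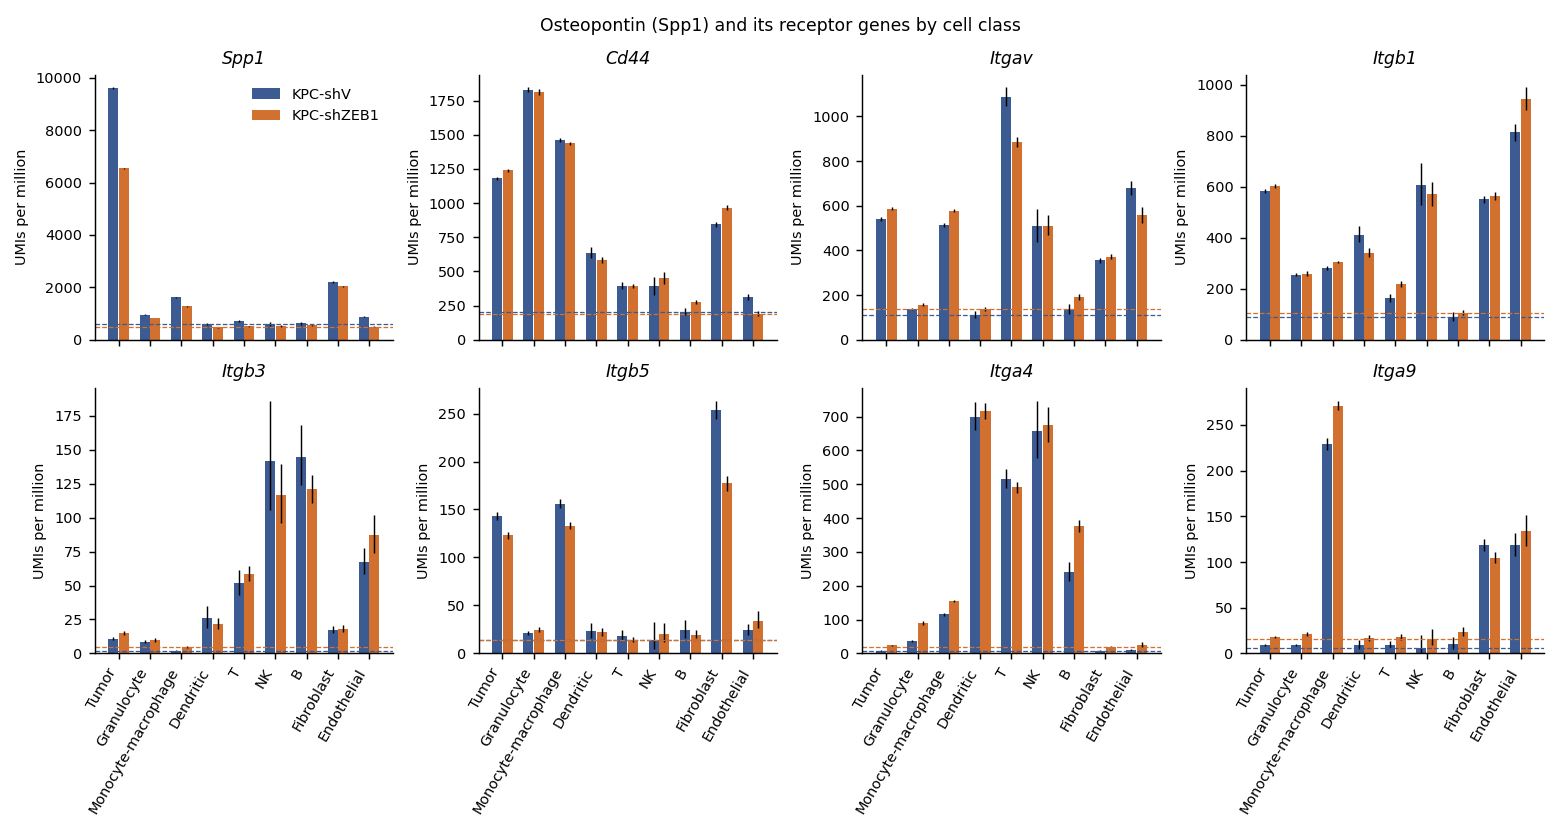
CPM of each of the 8 genes (vertical axes, each starting at 0) in 9 cell classes, with the library labelled KPC-shV in blue and that labelled KPC-shZEB1 in orange; black lines are exact Poisson 95% intervals and dashed lines mark the class with the lowest level in each library. Spp1 peaks in tumor-like cells at 9611 and 6539, Cd44 in granulocyte-like cells at 1831 and 1813, and Itga9 in monocyte-macrophage-like cells at 229 and 271.

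Tumor-like cells were 13.1% and 11.8% of the cells but held 78.2% (78.0 to 78.3) and 68.7% (68.5 to 68.8) of all Spp1 UMIs. The tumor share was lower in the library labelled KPC-shZEB1 as clustered here, but higher there in the 3 alternatives at the end of the paragraph. In that library monocyte-macrophage-like cells held 15.3% of the UMIs, against 8.93%. Granulocyte-like cells, 60.2% and 35.7% of the cells, held 5.10% and 3.43%. With the level of the lowest class taken off every class, an alternative chosen after seeing the data, tumor-like cells held 85.3% and 77.1%. The share in the library labelled KPC-shV rested on the cluster led by Cntn5 and Prg4, which alone held 61.2% of its Spp1 UMIs. That cluster took the name fibroblast-like without the upper UMI limit, and the tumor shares were then 40.8% and 54.0%. It did so too with KPC-shV clustered alone, where they were 34.2% and 68.7%. Without that cluster, an alternative chosen after seeing the data, they were 43.7% and 53.6%.

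**Figure D2:**
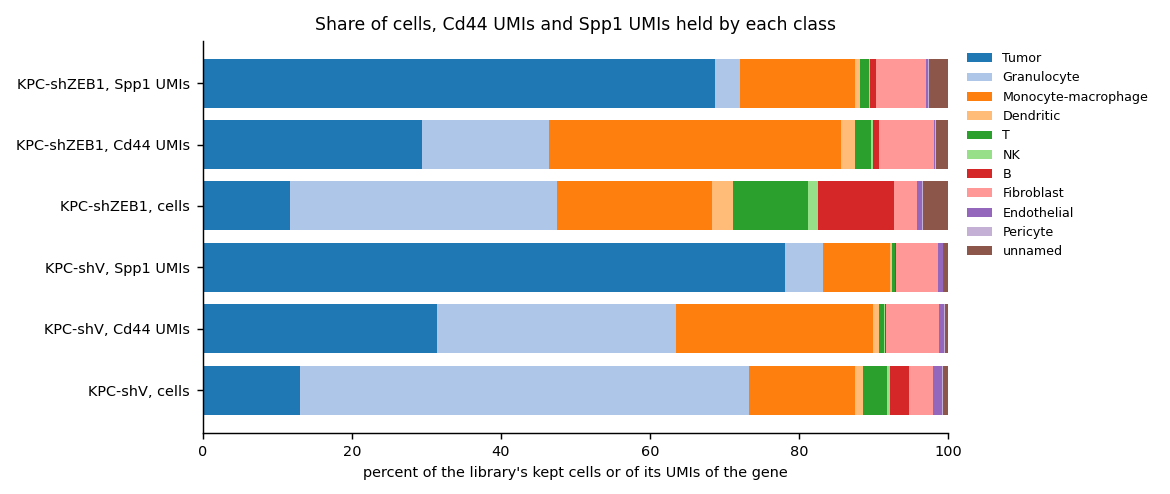
Horizontal bars give the percent of kept cells, of Cd44 UMIs and of Spp1 UMIs that each class holds in each library, with classes in colors. Tumor-like cells (dark blue) hold 78.2% and 68.7% of Spp1 UMIs, and granulocyte-like cells (light blue) hold 32.1% and 17.0% of Cd44 UMIs.

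Spp1 was detected in every class. A UMI of Spp1 was seen in 88.2% and 83.8% of B-like cells, a class not known to make osteopontin, at a median depth of 3732 and 3418 UMIs per cell. In tumor-like cells the share was 98.4% and 97.5%, at medians of 23780 and 23845 UMIs. With every cell thinned to 1000 UMIs the shares were 90.1% and 83.3% in tumor-like cells, 56.1% and 46.2% in monocyte-macrophage-like cells, and 47.4% and 44.4% in B-like cells. Levels were therefore read against a floor, here the 587 and 473 CPM in dendritic-like cells, the lowest class. The part of free RNA in it was not tested.

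The ratio of Spp1 to RNA of the 10 tumor marker genes separated the classes further. In tumor-like cells there were 211 and 116 Spp1 UMIs per 100 UMIs of the tumor markers. Granulocyte-like cells had 221 and 136, T-like cells 176 and 104, and B-like cells 150 and 101. Over the granulocyte-like, dendritic-like, T-like, NK-like, B-like and endothelial-like classes it ran from 123 to 221 and from 90.4 to 136, around or below the value in tumor-like cells. Monocyte-macrophage-like cells (444 and 284) and fibroblast-like cells (577 and 460) lay above every other named class in both libraries.

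The tumor-like class was made up of 4 clusters, and Spp1 differed between them more than between the libraries. The cluster led by Cntn5 and Prg4 held 11833 and 7692 CPM, and that led by Lama3 and Lypd8, with the most Epcam, held 5258 and 3230 CPM. The cluster led by Zfp804b and Pcdh9 had the highest values, at 15592 and 9963 CPM, but only 10 cells of it came from the library labelled KPC-shV against 230. A cluster of cells with few UMIs, led by S100a14 and Dbf4, held 8347 and 4861 CPM. In each library the Lama3 cluster was thus the lowest and the Zfp804b cluster the highest.

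The cluster with the least Spp1 had the most epithelial marker RNA. Epcam, an epithelial adhesion molecule, was at 895 and 965 CPM in the Lama3 cluster, against 32.9 and 68.3 CPM in the Cntn5 cluster and 47.5 and 37.6 CPM in the Zfp804b cluster. Cdh1, which encodes E-cadherin, was at 562 and 654 CPM in the Lama3 cluster and at 36.4 and 79.5 CPM in the Cntn5 cluster. The keratin gene Krt8 was at 925 and 1261 CPM in the Cntn5 cluster and Krt18 at 1003 and 1314 CPM. In the Lama3 cluster they were at 2059 and 2356 CPM and at 2097 and 2297 CPM. Fibroblast-like cells held 120 and 137 CPM of Krt8 and 107 and 117 CPM of Krt18. Col1a1, a collagen of fibroblasts, stayed at 226 and 253 CPM in the Cntn5 cluster, where fibroblast-like cells held 9654 and 12353 CPM. Dcn, another fibroblast marker, was at 255 and 113 CPM in the Cntn5 cluster, against 41.0 and 34.2 CPM in the Lama3 cluster. Summed fibroblast marker RNA was 1402 and 1217 CPM in the Cntn5 cluster and 473 and 546 CPM in the Lama3 cluster. Fibroblast-like cells held 32708 and 37327 CPM of it.

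Within the tumor-like class Spp1 was unevenly spread over cells. The median cell held 5398 and 3645 CPM, 10% of the cells lay at or below 835 and 517 CPM, and 10% at or above 20193 and 13509 CPM. The 10% of cells with the most Spp1 UMIs held 44.2% and 46.0% of its UMIs, with 15.9% and 15.8% of all UMIs of the class. Ranked by Spp1 CPM instead, the top 10% of cells had less tumor marker RNA than the others: 2131 and 2907 CPM, against 4902 and 5950 CPM.

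In all 4 tumor-like clusters Spp1 was lower in the library labelled KPC-shZEB1. Its ratio was 0.650 (0.645 to 0.655) in the Cntn5 cluster, 0.614 (0.606 to 0.622) in the Lama3 cluster, 0.639 (0.620 to 0.659) in the Zfp804b cluster and 0.582 (0.563 to 0.603) in the S100a14 cluster. For the whole class it was 0.680 (0.677 to 0.684), nearer to 1 than in any of the clusters, and short of 1.5-fold. The make-up of the class differed beside it: the Cntn5 cluster was 51.0% and 31.3% of tumor-like cells, and the Zfp804b cluster, with the highest level, was 0.672% and 16.2%. Without the Zfp804b cluster the ratio was 0.585, and without the Cntn5 cluster, an alternative chosen after seeing the data, it was 1.007, although the 3 clusters left each had lower values in the library labelled KPC-shZEB1.

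**Figure D3:**
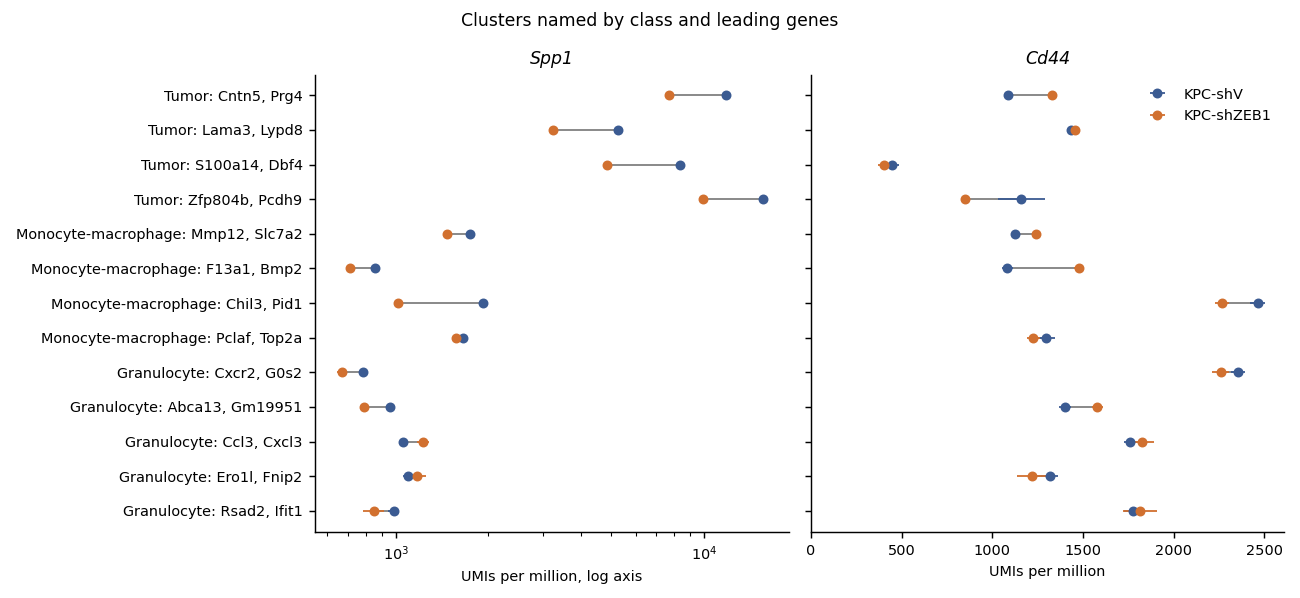
Spp1 (left, log axis) and Cd44 (right, axis from 0) in CPM for each cluster of tumor-like, monocyte-macrophage-like and granulocyte-like cells, named by its 2 leading genes; blue is the library labelled KPC-shV, orange KPC-shZEB1, colored lines are exact Poisson 95% intervals and grey lines join the libraries. Spp1 is lower in KPC-shZEB1 in all 4 tumor-like clusters, and among macrophage clusters differs most in the Chil3 cluster, from 1915 to 1018.

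One small cluster outside the named classes also carried much Spp1. Its 7 and 27 cells held 14047 and 13363 CPM, against 15592 and 9963 CPM in the highest tumor-like cluster. Led by Mmp7 and Wfdc18, it had Epcam in 100% of cells of both libraries and Cftr, the chloride channel of duct cells, in 85.7% and 66.7%, at 272 and 149 CPM against 15.9 and 34.3 CPM in the Lama3 cluster. It was left unnamed because the ductal list fitted it best while at least 5 tumor markers were in at least 50% of its cells. The ratio between its libraries was 0.951 (0.910 to 0.995).

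Monocyte-macrophage-like cells had the third highest level of the named classes. Their 3 larger clusters differed. The cluster led by Mmp12 and Slc7a2, which carried all 5 markers of lipid-handling macrophages in at least 20% of its cells, held 1744 and 1470 CPM. The cluster led by Chil3 and Pid1, with all 5 monocyte markers, held 1915 and 1018 CPM. The cluster led by F13a1 and Bmp2, with 3 of 5 markers of resident-like macrophages, stayed nearest the floor at 857 and 712 CPM, and a cycling cluster led by Pclaf and Top2a held 1653 and 1570 CPM.

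Spp1 in these cells came from a minority. The median monocyte-macrophage-like cell held 723 and 540 CPM, little above the floor. The 10% of cells with the most Spp1 UMIs held 59.7% and 61.7% of its UMIs, with 15.1% and 15.8% of all UMIs of the class. Ranked by Spp1 CPM instead, the top 10% of cells held 7954 and 5921 CPM. The remaining cells held 791 and 597 CPM. Tumor marker RNA in the top 10% by CPM was 385 and 443 CPM, against 360 and 449 CPM in the others. Their median doublet score was 0.06 and 0.05, with 0.04 in the others of both libraries.

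The ratio between libraries in monocyte-macrophage-like cells was 0.789 (0.779 to 0.800). It was 0.532 (0.515 to 0.549) in the Chil3 cluster, past 1.5-fold, 0.843 (0.828 to 0.858) in the Mmp12 cluster and 0.831 (0.796 to 0.867) in the F13a1 cluster. The floor itself differed in the same direction, with a ratio of 0.806 (0.747 to 0.870) in dendritic-like cells, and its part in these ratios was not tested. With the floor taken off per 1e+06 UMIs, the ratio of the class was 0.780.

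Fibroblast-like cells showed the most skewed Spp1 of all. The median cell held 598 and 463 CPM, at the floor. Yet the 10% of cells with the most Spp1 UMIs held 67.4% and 72.7% of its UMIs, with 12.8% and 13.4% of all UMIs of the class. Ranked by Spp1 CPM instead, the top 10%, 36 and 38 cells, held 12203 and 12327 CPM. For comparison, the top 10% of tumor-like cells by CPM held 30761 and 23660 CPM. Tumor marker RNA was not raised in these 36 and 38 fibroblast-like cells, at 334 and 413 CPM against 388 and 447 CPM in the others. Their fibroblast marker RNA was lower, at 17651 and 23220 CPM against 34753 and 39196 CPM. The ratio between the libraries was 0.925 (0.909 to 0.943) for the class as named here. It was 0.592 without the upper UMI limit and 0.240 with each library clustered alone, settings in which the Cntn5 cluster took the name fibroblast-like, the latter in KPC-shV only.

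**Figure D4:**
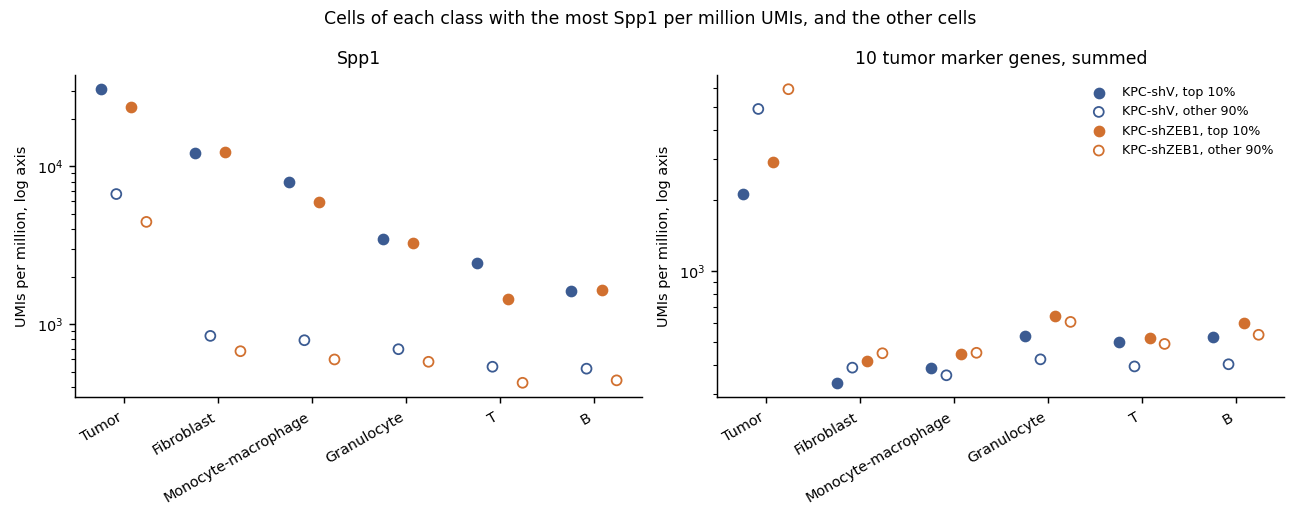
Spp1 (left) and the summed 10 tumor marker genes (right) in CPM, on log axes, in 6 classes. Filled points are the 10% of cells with the most Spp1 by CPM, and open points the other 90%. Blue is the library labelled KPC-shV and orange KPC-shZEB1. In fibroblast-like and monocyte-macrophage-like cells the filled points stand far above the open ones for Spp1 (12203 against 842 and 7954 against 791 in KPC-shV) but not for the tumor markers.

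In granulocyte-like cells, named from neutrophil markers, Spp1 was at 951 and 828 CPM, against 587 and 473 CPM in the lowest class. The 10% of cells with the most Spp1 by CPM held 3448 and 3270 CPM and the others 694 and 577 CPM. Their tumor marker RNA was 531 and 643 CPM, against 421 and 608 CPM in the others. The clusters ran from 786 CPM (led by Cxcr2 and G0s2) to 1097 CPM (led by Ero1l and Fnip2) in the library labelled KPC-shV. In the library labelled KPC-shZEB1 they ran from 670 CPM in the Cxcr2 cluster to 1228 CPM in the cluster led by Ccl3 and Cxcl3. That last cluster was higher there than in the library labelled KPC-shV (1055 CPM, ratio 1.16, 1.11 to 1.22), whereas the class as a whole had a ratio of 0.871 (0.851 to 0.891).

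Cd44, the receptor gene followed in neutrophils by the study, was highest in granulocyte-like cells and did not differ there between the libraries by more than counting error. The class held 1831 and 1813 CPM, a ratio of 0.990 (0.975 to 1.006). The median of 3047 genes of this class lay 0.10 higher on the log2 scale in the library labelled KPC-shZEB1, and relative to that shift the ratio was 0.923. A Cd44 UMI was seen in 92.4% and 91.7% of the cells, and in 71.9% and 72.4% after thinning to 1000 UMIs, against 19.0% and 23.5% of thinned B-like cells.

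Cd44 was graded among granulocyte-like cells. The Cxcr2 cluster held the most, with 2354 and 2258 CPM. Cxcr2 encodes the chemokine receptor that draws neutrophils out of blood. The Ccl3 cluster (1759 and 1826 CPM) and the interferon-response cluster led by Rsad2 and Ifit1 (1775 and 1812 CPM) came next. The cluster led by Abca13 and Gm19951 (1400 and 1578 CPM) and the Ero1l cluster (1316 and 1219 CPM), led by genes of low oxygen, held the least. The spread between clusters of 1 library was thus much larger than the difference between libraries in any of them, which ran from 0.926 (0.857 to 1.00) to 1.13 (1.09 to 1.16). The Abca13 cluster was 18.04% and 43.9% of the class, and the Ccl3 cluster 28.6% and 11.9%.

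Cd44 was also present well above the floor in other classes. Monocyte-macrophage-like cells held 1460 and 1438 CPM, tumor-like cells 1182 and 1240 CPM, and fibroblast-like cells 845 and 967 CPM. The Chil3 monocyte cluster, at 2462 and 2263 CPM, was as high as the Cxcr2 granulocyte cluster, and the F13a1 cluster was at 1083 and 1478 CPM, a ratio of 1.36 (1.32 to 1.41). In tumor-like cells the Lama3 cluster held the most Cd44, 1436 and 1458 CPM, and the least Spp1. Of all Cd44 UMIs, granulocyte-like cells held 32.1% and 17.0%, tumor-like cells 31.4% and 29.4%, and monocyte-macrophage-like cells 26.4% and 39.1%. Lymphocyte classes held 204 to 451 CPM.

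Itgav, the α chain shared by the 3 RGD-reading integrins, was highest in T-like cells. They held 1089 and 885 CPM, with tumor-like (541 and 587), monocyte-macrophage-like (515 and 578), endothelial-like (678 and 557) and NK-like cells (507 and 511) below them. In the library labelled KPC-shZEB1 the last 4 followed each other with overlapping intervals. Granulocyte-like cells held 137 and 157 CPM, close to the lowest class at 113 and 138 CPM.

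Among T cells, Itgav was led by regulatory T-like cells, the Foxp3-bearing cells that restrain other T cells. They held 3641 and 2756 CPM, against 1315 and 1107 in CD8 T-like cells, 807 and 740 in CD4 T-like cells and 300 and 311 CPM in T and NK sub-clusters that stayed unnamed. The value was lower in the library labelled KPC-shZEB1 in regulatory T-like cells (ratio 0.757, 0.698 to 0.821) and in CD8 T-like cells (0.842, 0.786 to 0.904). Gm13684, a gene on the opposite strand inside Itgav, had 7276 UMIs in all, and without a statement that strand was used in counting the RNA of the pair cannot be told apart.

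Itgb1, the most widely shared β chain, was highest in endothelial-like cells at 812 and 944 CPM. NK-like (607 and 570), tumor-like (584 and 603) and fibroblast-like cells (551 and 563) formed the next step. Granulocyte-like cells held 256 and 259 CPM and B-like cells 90.5 and 105 CPM. The 14 and 10 pericyte-like cells, too few for a class of their own, held 1113 and 1259 CPM.

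The remaining β chains had separate homes. Itgb3, known from platelets, endothelium and osteoclasts, was low in most classes. It reached 145 and 121 CPM in B-like cells, 141 and 116 in NK-like cells and 67.6 and 87.3 CPM in endothelial-like cells, and stood at 10.98 and 14.99 CPM in tumor-like cells. A dendritic-like cluster led by Siglech, the surface lectin of plasmacytoid dendritic cells, had the highest cluster value, 269 and 220 CPM from 15 and 39 cells.

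Itgb5 was instead a gene of stroma, macrophages and tumor cells. It was at 254 and 177 CPM in fibroblast-like cells, 156 and 133 in monocyte-macrophage-like cells and 143 and 123 CPM in tumor-like cells. All other classes lay between 13.9 and 34.2 CPM with overlapping intervals between neighbors in both libraries. Fibroblast-like cells had the lowest ratio for it among the 3 expressing classes, 0.698 (0.659 to 0.741).

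The α chains of the thrombin-exposed site had different leading classes. Itga4, which with β1 forms a homing receptor of leukocytes, was highest in dendritic-like (700 and 717), NK-like (657 and 674) and T-like cells (516 and 491 CPM). Mature dendritic-like cells, led by Strip2 and Ccl22, reached 1747 and 1641 CPM. B-like cells held 240 and 377 CPM, monocyte-macrophage-like cells 115 and 155 CPM and granulocyte-like cells 36.6 and 90.3 CPM.

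Monocyte-macrophage-like cells, being many, held 39.2% and 33.5% of all Itga4 UMIs. Itga9 was highest in macrophages, endothelium and fibroblasts. Monocyte-macrophage-like cells held 229 and 271 CPM, endothelial-like cells 119 and 134, and fibroblast-like cells 118 and 105 CPM. Within the macrophages, the Mmp12 cluster held 340 and 343 CPM and the F13a1 cluster 266 and 285, while the Chil3 monocyte cluster held 33.0 and 68.9 CPM. In the other classes Itga9 lay between 5.55 and 23.5 CPM.

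Cells with RNA of both chains of a pair were counted after thinning to 1000 UMIs, since unthinned shares followed depth. For αvβ1 the shares were 20.4% (14.2 to 27.8) and 23.2% (14.6 to 33.8) of endothelial-like cells, 14.2% (12.5 to 16.1) and 14.0% (12.2 to 15.9) of tumor-like cells, and 2.71% (2.34 to 3.12) and 3.05% (2.56 to 3.61) of granulocyte-like cells. For α4β1 they were 17.0% and 13.6% of NK-like cells and 13.04% and 15.1% of dendritic-like cells. It was found in 0 of 361 and 0 of 380 thinned fibroblast-like cells. At this depth the exact intervals allow up to 1.02% and 0.966% of cells with UMIs of both. Unthinned, the pair was seen in 18.01% and 40.5% of fibroblast-like cells, the class with the lowest Itga4 level. The αvβ1 pair was thus seen in a larger share of tumor-like than of granulocyte-like cells, beyond counting error.

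The other pairs were rarer. αvβ5 was found in 5.05% and 4.71% of monocyte-macrophage-like cells, 4.71% and 3.42% of fibroblast-like cells and 3.96% and 2.53% of tumor-like cells. α9β1 was found in 4.07% and 5.82% of monocyte-macrophage-like cells, 4.43% and 2.89% of fibroblast-like cells and 3.40% and 6.10% of endothelial-like cells, with overlapping intervals between these classes. αvβ3 was found in 3.56% and 3.22% of T-like cells, 4.08% and 3.66% of endothelial-like cells and 2.42% and 1.39% of B-like cells. It was also found in 0 of 53 and 5 of 169 NK-like cells (the exact interval of the 0 allows up to 6.72% at this depth). In tumor-like cells it was found in 0.470% and 0.773%. Unthinned, αvβ5 was seen in 69.4% and 68.7% of tumor-like cells, so a missing pair in a thinned cell is no sign that the cell lacks it.

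Between the libraries, most members stayed within 1.5-fold. To read these differences, all genes with at least 50 UMIs over both libraries of a class and at least 10 CPM in 1 of them were compared the same way. In tumor-like cells 2 of 8 members passed 1.5-fold, where 7.1% of 9570 genes did. In granulocyte-like cells it was 2 of the 7 members compared, where 18.8% did, and in monocyte-macrophage-like cells 0 of 7, where 3.44% did. Counts were 1 of 8 in dendritic-like cells (12.9% of genes), 1 of 8 in T-like cells (8.6%), 0 of 6 in NK-like cells (15.2%), 2 of 8 in B-like cells (13.8%), 1 of 8 in fibroblast-like cells (7.04%) and 3 of 8 in endothelial-like cells (14.2%). By direction, the genes higher and lower in the library labelled KPC-shZEB1 were 5.37% and 1.72% of those compared in tumor-like cells, 16.3% and 2.53% in granulocyte-like cells, 2.74% and 0.692% in monocyte-macrophage-like cells, and 7.75% and 5.16% in dendritic-like cells. The shares were 6.36% and 2.24% in T-like cells, 4.01% and 3.03% in fibroblast-like cells, 9.46% and 5.78% in NK-like cells, 8.53% and 5.71% in endothelial-like cells, and 10.8% and 2.98% for the B-like class. All members past 1.5-fold were higher, except Spp1 and Cd44 in endothelial-like cells. With so few members, these counts are no result about the set.

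**Figure D5:**
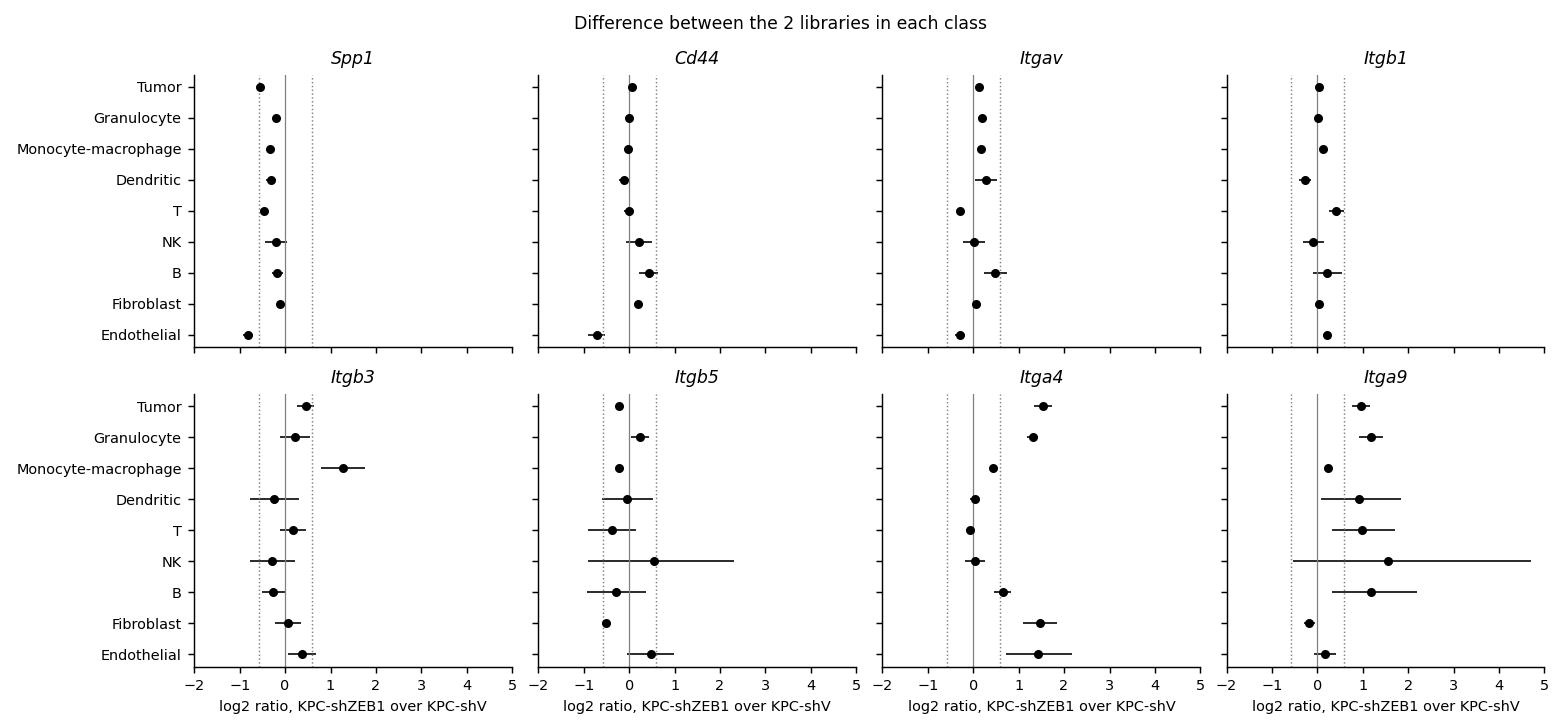
The log2 ratio of KPC-shZEB1 over KPC-shV (horizontal axes) for each gene in 9 classes, with exact 95% intervals that cover counting error; dotted lines mark 1.5-fold. Spp1 lies below 0 in every class, Cd44 in granulocyte-like cells lies at 0, and Itga4 lies above the upper dotted line in 5 classes.

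Spp1 was lower in the library labelled KPC-shZEB1 in all 9 classes as clustered here. The ratios ran from 0.565 in endothelial-like cells to 0.925 in fibroblast-like cells. The interval held 1 only in NK-like cells (0.868, 0.740 to 1.02), where the ratio turned to 2.65 with the lowest class taken off. In the library labelled KPC-shV the NK-like level was 607 CPM (530 to 693). The level taken off there was 587 CPM (550 to 626), with an overlapping interval, so 2.65 gives no direction. The floor was also lower in the library labelled KPC-shZEB1. In endothelial-like cells, the only class past 1.5-fold for Spp1, Spp1 was at 886 and 500 CPM, and Cd44 was lower as well, at 312 and 190 CPM. Tumor marker RNA in that class was also lower, at 721 and 464 CPM. Under the looser cell filter and without the upper UMI limit its Spp1 ratio turned to 1.02 and 1.08.

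Itga4 and Itga9 were the members past 1.5-fold in tumor-like and granulocyte-like cells, both higher in the library labelled KPC-shZEB1. In tumor-like cells Itga4 was at 8.18 and 23.6 CPM, a ratio of 2.89 (2.52 to 3.32), and Itga9 at 9.13 and 17.9 CPM, a ratio of 1.96 (1.70 to 2.25) that turned to 0.461 with the level of the lowest class taken off. These levels lay at the floor of each gene. The lowest class held 7.32 and 20.2 CPM of Itga4 (fibroblast-like) and 5.55 and 16.2 CPM of Itga9 (NK-like). Summed marker RNA of T-like, NK-like and B-like cells in tumor-like cells was 39.3 and 102 CPM, and T-like and B-like cells were 3.20% and 10.01%, and 2.54% and 10.13%, of the cells. The part of free RNA was not tested. In dendritic-like, NK-like and T-like cells, which hold the most Itga4, its ratios were 1.02, 1.03 and 0.953.

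In granulocyte-like cells Itga4 stood above the floor. It was at 36.6 and 90.3 CPM, a ratio of 2.47 (2.26 to 2.70), where the floor was 7.32 and 20.2 CPM. By cluster, it was at 53.2 and 85.7 CPM in the Cxcr2 cluster, 69.1 and 117 CPM in the Abca13 cluster and 21.4 and 81.2 CPM in the Rsad2 cluster, but at 12.04 and 31.9 CPM in the Ccl3 cluster and 13.2 and 26.2 CPM in the Ero1l cluster. So the clusters that held the least Itga4 in the library labelled KPC-shV were also the least in the other, and the Abca13 cluster, with the most, made up more of the class there. Cerkl, on the opposite strand, overlaps Itga4 and had 708 UMIs in all.

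The genes around the pathway were described from lists in 5 classes (tumor-like, granulocyte-like, monocyte-macrophage-like, T-like and fibroblast-like cells). The 4 other small integrin-binding matrix proteins of bone (Ibsp, Dmp1, Dspp and Mepe) were too low to compare in these classes, at most 6.04 CPM in any class. Among 11 other ligands of the same receptors, 7 were compared in tumor-like cells, with 2 higher and 0 lower. Of all genes compared there, 5.37% were higher and 1.72% lower. The median log2 ratio of the ligands was 0.02, where all genes had 0.01. The 2 higher were Tnc, the matrix protein tenascin C (38.5 and 92.02 CPM, ratio 2.39), and Postn, periostin (6.79 and 12.1 CPM).

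Fibroblast-like cells had the highest level of most genes on this list, in which the synthases Has1, Has2 and Has3 stand for hyaluronan. Of the 11, 9 had their highest level there, among them Fn1 (fibronectin, 3301 and 3028 CPM), Tnc (1674 and 2623), Thbs1 (thrombospondin 1, 1140 and 1124), Postn (562 and 599), the hyaluronan synthase Has1 (374 and 353), Nid1 (348 and 391) and Mfge8 (97.5 and 91.6). The other two were Has2 and Vtn, at 68.8 and 85.3 CPM and at 4.49 and 14.6 CPM. Tnc was past 1.5-fold in fibroblast-like cells, with a ratio of 1.57 (1.54 to 1.60), and so was the low Vtn. In all, 2 of 10 compared ligands were higher in fibroblast-like cells, where 4.01% of all genes compared were. In granulocyte-like cells it was 3 of 7 (Tnc, Postn and Mfge8), where 16.3% of genes were. In monocyte-macrophage-like cells it was 1 of 6 (Tnc, 2.74% of genes) and in T-like cells 2 of 7 (Tnc and Thbs1, 6.36% of genes). None was lower. Tnc, Postn, Mfge8 and Thbs1 were each highest in fibroblast-like cells, and the part of free RNA in the other classes was not tested. With so few genes, these counts are no result about the list. The median log2 ratio of the ligands compared was 0.49 in granulocyte-like cells, where all genes had 0.21, and 0.44 in T-like cells, where all genes had 0.04.

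Of 6 proteases known to cleave osteopontin, F2 (prothrombin) and Plg were near 0 in all classes. Mmp9 was a gene of granulocyte-like cells (513 and 610 CPM), Mmp12 of monocyte-macrophage-like cells (855 and 759 CPM) and Mmp3 of fibroblast-like cells (243 and 338 CPM). None of 4 compared passed 1.5-fold in tumor-like cells, none of 2 in granulocyte-like and monocyte-macrophage-like cells, while Mmp12 did in T-like (21.8 and 40.2 CPM) and fibroblast-like cells (23.8 and 36.3 CPM), where it was low.

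Of 6 other integrin chains that pair with the members, Itga5, the fibronectin receptor chain, was highest in fibroblast-like cells (581 and 645 CPM) and passed 1.5-fold in granulocyte-like cells (59.7 and 101 CPM, ratio 1.69). Itgb7 was past it there and in tumor-like cells at low levels (3.94 and 10.2 CPM; 11.8 and 23.1 CPM), and its highest class was T-like, with 134 and 106 CPM. Itgb8, which with αv activates TGF-β, was the only one that was lower, in tumor-like cells from 12.7 to 4.68 CPM, a ratio of 0.368.

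Of 6 partners and sheddases of CD44, Cd74 passed 1.5-fold in each of the 5 classes and the others in none. Cd74, the invariant chain of MHC class II and a partner of CD44 in MIF signaling, was at 448 and 1080 CPM in tumor-like cells, 252 and 853 in granulocyte-like cells and 5156 and 8021 CPM in monocyte-macrophage-like cells. The sheddase genes Adam10 and Adam17 and the cytoskeletal linkers Ezr, Msn and Rdx stayed within 1.5-fold in these classes. Beside Cd74, marker RNA of macrophages was also higher in granulocyte-like cells (536 and 1164 CPM), and its part was not tested.

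Genes whose pattern was most like each member were ranked by Pearson r of log2(CPM + 1) over 42 units, each a cluster in 1 library with at least 50 cells, among 7877 genes. Units share library, depth and free RNA, and so r is a description. Spp1 was closest to Sdc1 (syndecan 1, r = 0.91), Serf1 (0.88) and Ltbp3 (0.86). Cd44 was closest to Morrbid (0.87), a long noncoding RNA of short-lived myeloid cells, Gm41409 (0.87) and Cebpb (0.87), a myeloid transcription factor.

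Integrin genes had their own companions. Itga4 went with Akna, Myo1g and Stat4 (0.94, 0.93 and 0.91), and Itgb3 with Ets1, Cers4 and Ggps1 (0.90, 0.86 and 0.84). Itgb5 went with Fn1, Idh1 and Sdc4 (0.90, 0.90 and 0.89), Itga9 with Sash1, Rgl1 and Selenop (0.89, 0.89 and 0.86), and Itgb1 with Spaca6, Ppfibp1 and Gabarapl1 (0.83, 0.82 and 0.82). Itgav was closest to Gm13684 (0.91), the gene inside it on the opposite strand, then to Raph1 (0.86) and Elk3 (0.80). With a pseudocount of 10 in place of 1, 18 of these 24 genes stayed among the top 3.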

How the data were processed

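Single-cell RNA was measured in 2 tumors, 1 per group. The deposited matrices hold raw UMI counts. The submitters' processing notes name Cell Ranger 7.0.1 and mm10. Whether introns were counted is not given in the sources used here. The members and lists were chosen with earlier results of these data known. The study's limits for cells were applied: 500 genes or more, 1000 to 60000 UMIs, no more than 15% mitochondrial UMIs (11713 and 12447 cells of 12594 and 13271 barcodes). Scrublet scores above 0.2 were then removed (315 and 343 cells), since its automatic threshold called 0 and 265. Both libraries, with 130941086 and 143461224 UMIs in all, were clustered together in scanpy 1.11.5 (3000 variable genes without the 41 members and list genes, 30 components, 20 neighbors, leidenalg 0.10.2 at resolution 1, no alignment). A cluster took the class whose markers were relatively highest, given 3 markers in at least 20% of cells at 3 times the median cluster. It stayed unnamed where 5 markers of another class were in at least 50% of cells. These settings were set after the first clusters were seen. T-like and NK-like cells were clustered again.

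UMIs were summed by class and library and divided by all UMIs of the class (CPM). Intervals are exact (Poisson, Clopper-Pearson, or conditional on the sum for a ratio) and cover counting error only. The fold counting was tested on simulated data. Named genes were the 8 members, Zeb1, list genes past 1.5-fold or in their highest class, the 3 genes most like a member, and genes that lead a tumor-like, monocyte-macrophage-like or granulocyte-like cluster. Markers given for single clusters, genes leading other clusters, and list genes that passed no fold in the class named were chosen after their values were seen. Alternatives were other cell filters, doublet removals, clusterings, free RNA subtractions, scalings, folds and pseudocounts. No paired analysis was possible because each group had 1 library. Sequences and coordinates come from GENCODE vM21 on GRCm38, the same build.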

Additional observations from a re-analysis of the deposited data

Results flagged for a closer look

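The 289 and 217 barcodes above 60000 UMIs, left out of every comparison that kept the upper UMI limit, also held the receptor genes. In the library labelled KPC-shZEB1 they carried 1336 CPM of Cd44, 558 of Itgav, 609 of Itgb1, 20.8 of Itga4 and 36.3 CPM of Itga9, each above the library labelled KPC-shV, the control, where the values were 1262, 515, 571, 7.86 and 24.2 CPM. The ratios were 1.06 (1.04 to 1.08) for Cd44, 1.08 (1.06 to 1.11) for Itgav, 1.07 (1.04 to 1.09) for Itgb1, 2.64 (2.22 to 3.15) for Itga4 and 1.497 (1.34 to 1.67) for Itga9. Spp1 in these barcodes was at 6913 and 4883 CPM, a ratio of 0.706 (0.701 to 0.712).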

How the results depend on the processing

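Each group had 1 library, so no library could be left out and no spread between tumors is known. No paired analysis was possible because the groups share no second library. Of the values recomputed, 578 stayed within the counting interval (or set limit) of the reported one, 144 moved outside it, and 5, all ratios reported past 1.5-fold, crossed 1. Whatever their size, 57 of 702 recomputed ratios, from 30 of 72 results, lay on the other side of 1, so directions of ratios near 1 are not settled. The ratio of Spp1 in tumor-like cells (0.680) was 0.591 with at least 200 genes and 500 UMIs per cell, 0.803 without the upper UMI limit, 0.673 without doublet removal, 0.647 with the highest 8% of doublet scores removed, 0.900 with each library clustered alone, 0.690 as a mean over cells, 0.684 relative to the median gene and 0.585 without the cluster mostly of 1 library. Settings chosen after seeing the data gave 0.672 with the lowest class taken off per 1e+06 UMIs and 1.007 without the Cntn5-Prg4 cluster.

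The tumor share of Spp1 UMIs under the same settings, with KPC-shV first, was 78.5% and 48.6% with the looser cell filter, 40.8% and 54.0% without the upper limit, 77.8% and 68.5% without doublet removal, and 78.4% and 68.1% with the highest 8% removed. It was 82.8% and 73.3% with the lowest level per cell taken off, 85.3% and 77.1% with that per 1e+06 UMIs, and 43.7% and 53.6% without the Cntn5-Prg4 cluster. In the library labelled KPC-shV it was 78.3% at resolution 0.5 and 34.2% with each library clustered alone. The library with the larger tumor share was thus KPC-shZEB1 in 3 of these settings. The Cntn5-Prg4 cluster was named fibroblast-like without the upper limit and in KPC-shV alone, and the Zfp804b cluster stayed unnamed under the looser filter.

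Cd44 in granulocyte-like cells (0.990) was 0.941 with the lowest level per cell taken off and 0.923 relative to the median gene. Spp1 in monocyte-macrophage-like cells (0.789) was 0.803 with the highest 8% of doublet scores removed and 0.728 as a mean over cells. Itga9 turned to 0.461 in tumor-like, 0.125 in dendritic-like and 0.509 in T-like cells with the lowest class taken off per 1e+06 UMIs. In the library labelled KPC-shV the level taken off came from only 2 UMIs in 53 NK-like cells. The direction of Itga9 at floor level is therefore not settled. Spp1 in endothelial-like cells turned to 1.02 under the looser filter and 1.08 without the upper limit, and the cause was not tested. Genes past the fold were 2.68% and 4.25% at 2-fold, and 22.2% and 32.5% with at least 10 UMIs and no CPM minimum, in tumor-like and granulocyte-like cells.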
